A study of Mus musculus with 10 samples.

Results

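The class III POU transcription factors are the products of 4 mouse genes, Pou3f1, Pou3f2, Pou3f3 and Pou3f4. They were taken by symbol from the 30406 genes that all libraries had in common, and all 4 were present. Their transcripts were followed through every cell type of the medial prefrontal cortex, and between dominant (rank 1) and subordinate (rank 4) mice. Single-cell RNA sequencing of this cortex gave 5 libraries per rank, each made from pooled tissue of 2 or 3 male C57BL/6N mice older than 2 months, dissected 1 day after the last tube test, in which mice meet head-on in a narrow tube. The pool, not the mouse, was therefore the replicate, and the cells had been freed with papain at 37 °C. The question set by the design was whether rank went with expression in these cells. Values are counts of unique molecular identifiers (UMIs, 1 per captured RNA molecule) of a gene, summed over the cells of 1 type in 1 library and given per 1000000 UMIs of those cells (CPM).

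POU proteins bind DNA through 2 linked parts, a POU-specific domain and a homeodomain, and many recognise an octamer motif. The class III genes have no introns, and they are expressed mainly in the nervous system. Pou3f1 (also called Oct6 or SCIP) is known from Schwann cells, the myelinating cells of peripheral nerve, and from deep-layer projection neurons. Pou3f2 (Brn2) and Pou3f3 (Brn1) are known from the formation of upper cortical layers and from neural progenitors, and Pou3f4 (Brn4) from the inner ear and the developing brain.

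Each of the 4 genes is a single exon on the GRCm38 build. Pou3f1 (ENSMUSG00000090125) lies at chr4:124656807-124660655 on the plus strand, Pou3f2 (ENSMUSG00000095139) at chr4:22482780-22488366 on the minus strand, Pou3f3 (ENSMUSG00000045515) at chr1:42695768-42703176 on the plus strand and Pou3f4 (ENSMUSG00000056854) at chrX:110814280-110817207 on the plus strand. Their coding parts differ in length, with 1347, 1335, 1491 and 1083 bases without the stop codon in Pou3f1 to Pou3f4. The 75 coding bases in which the 4 genes are most alike are shown because they tell how close the copies are whose reads had to be kept apart, with bases that differ from Pou3f1 in capitals. They lie at chr4:124658556-124658630, chr4:22487151-22487225, chr1:42698193-42698267 and chrX:110815137-110815211 in the same order and read 5′ to 3′ along the gene.
Pou3f1: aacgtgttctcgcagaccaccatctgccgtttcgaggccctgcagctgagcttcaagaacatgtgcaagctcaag
Pou3f2: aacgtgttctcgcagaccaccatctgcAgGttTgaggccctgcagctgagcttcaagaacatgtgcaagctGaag
Pou3f3: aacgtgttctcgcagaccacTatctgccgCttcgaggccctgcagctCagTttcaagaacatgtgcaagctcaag
Pou3f4: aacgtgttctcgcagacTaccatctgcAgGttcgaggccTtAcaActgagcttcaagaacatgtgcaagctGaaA
In this window Pou3f2 and Pou3f3 were each 94.7% identical to Pou3f1, with 4 differences, and Pou3f4 was 89.3% identical, with 8 differences. Over whole transcripts the longest run shared by any pair was 38 bases, in Pou3f1 and Pou3f2. In the last 1000 bases, the part nearest the poly(A) tail, no pair shared a run above 12 bases.

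For Pou3f1 the source used here held no upstream sequence. Upstream sequence is shown for the other 3 genes. It comes from RefSeq on GRCm38.p6 and covers chr4:22488367-22488616 (minus strand) for Pou3f2, chr1:42695518-42695767 (plus) for Pou3f3 and chrX:110814129-110814279 (plus) for Pou3f4, up to the last base before the annotated start. Capitals mark CCAAT on either strand.
Pou3f2: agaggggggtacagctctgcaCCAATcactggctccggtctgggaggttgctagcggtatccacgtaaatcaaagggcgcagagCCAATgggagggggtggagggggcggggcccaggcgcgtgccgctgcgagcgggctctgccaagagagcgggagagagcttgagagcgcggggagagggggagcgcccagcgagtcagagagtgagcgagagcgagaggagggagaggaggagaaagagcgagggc
Pou3f3: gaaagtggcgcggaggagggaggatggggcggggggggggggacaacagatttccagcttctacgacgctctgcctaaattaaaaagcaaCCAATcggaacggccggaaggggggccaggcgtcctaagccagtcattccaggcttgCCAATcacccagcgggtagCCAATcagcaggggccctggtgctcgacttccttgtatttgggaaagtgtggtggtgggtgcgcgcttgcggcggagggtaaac
Pou3f4: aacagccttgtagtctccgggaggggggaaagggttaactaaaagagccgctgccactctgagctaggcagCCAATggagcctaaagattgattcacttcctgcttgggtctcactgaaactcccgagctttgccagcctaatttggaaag
CCAAT occurred at 2 places in the Pou3f2 stretch, 3 in the Pou3f3 stretch and 1 in the Pou3f4 stretch. Over 32851 mouse stretches of 250 upstream bases, 33.8% held at least 1 CCAAT, 10.1% at least 2 and 2.79% at least 3. The octamer ATGCAAAT and the letters AACAAT, searched on both strands, were in none of the 3 stretches, and 1.60% and 9.42% of all stretches held them. The 151 bases of Pou3f4 are fewer than the 250 of the background.

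The libraries held between 4442750 and 29278466 UMIs over 1838 to 15826 deposited barcodes, and 46283 of 64937 barcodes were kept as single cells. Cell types were named from marker genes after clustering without the 4 genes, which gave 42286 cells in named types and 3997 in none. Names stand for cells resembling the type. Of excitatory neurons these were the intratelencephalic subclasses L2/3 IT, L5 IT and deep IT, the pyramidal tract subclass L5 PT, the near-projecting L5/6 NP and the corticothalamic L6 CT. Inhibitory neurons fell into Sst, Vip, Pvalb and Lamp5 subclasses. Every marker was above its mean over all cells in its type except 1 of 5 for L5 IT. File headers gave software version 3.1.0 for replicates 1 to 3 in either rank and version 4.0.0 for replicates 4 and 5, and the libraries of these 2 versions stood apart in many genes, with 39.5% of tests called between versions in classes and 31.6% in subclasses. Pairs of libraries shared at most 104 barcodes, 1.7% of the smaller library.

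Each of the 4 genes had its own distribution. Pou3f1 was highest in L5 PT neurons and in the oligodendrocyte lineage, Pou3f2 in astrocytes and oligodendrocyte precursors (OPCs), Pou3f3 in astrocytes, OPCs and the Sst and Vip interneurons, and Pou3f4 in astrocytes. Types next to each other in the order of mean level were compared within libraries on the log2(CPM + 10) scale, over 63 pairs of types with at least 6 libraries holding 20 cells of both. The test was a two-sided exact permutation test of sign changes with Benjamini-Hochberg adjustment, and 4 of the 63 steps passed. Leaving out any 1 library left 0 of these steps past the threshold, since the smallest p of 9 libraries is 0.00391.

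**Figure D1:**
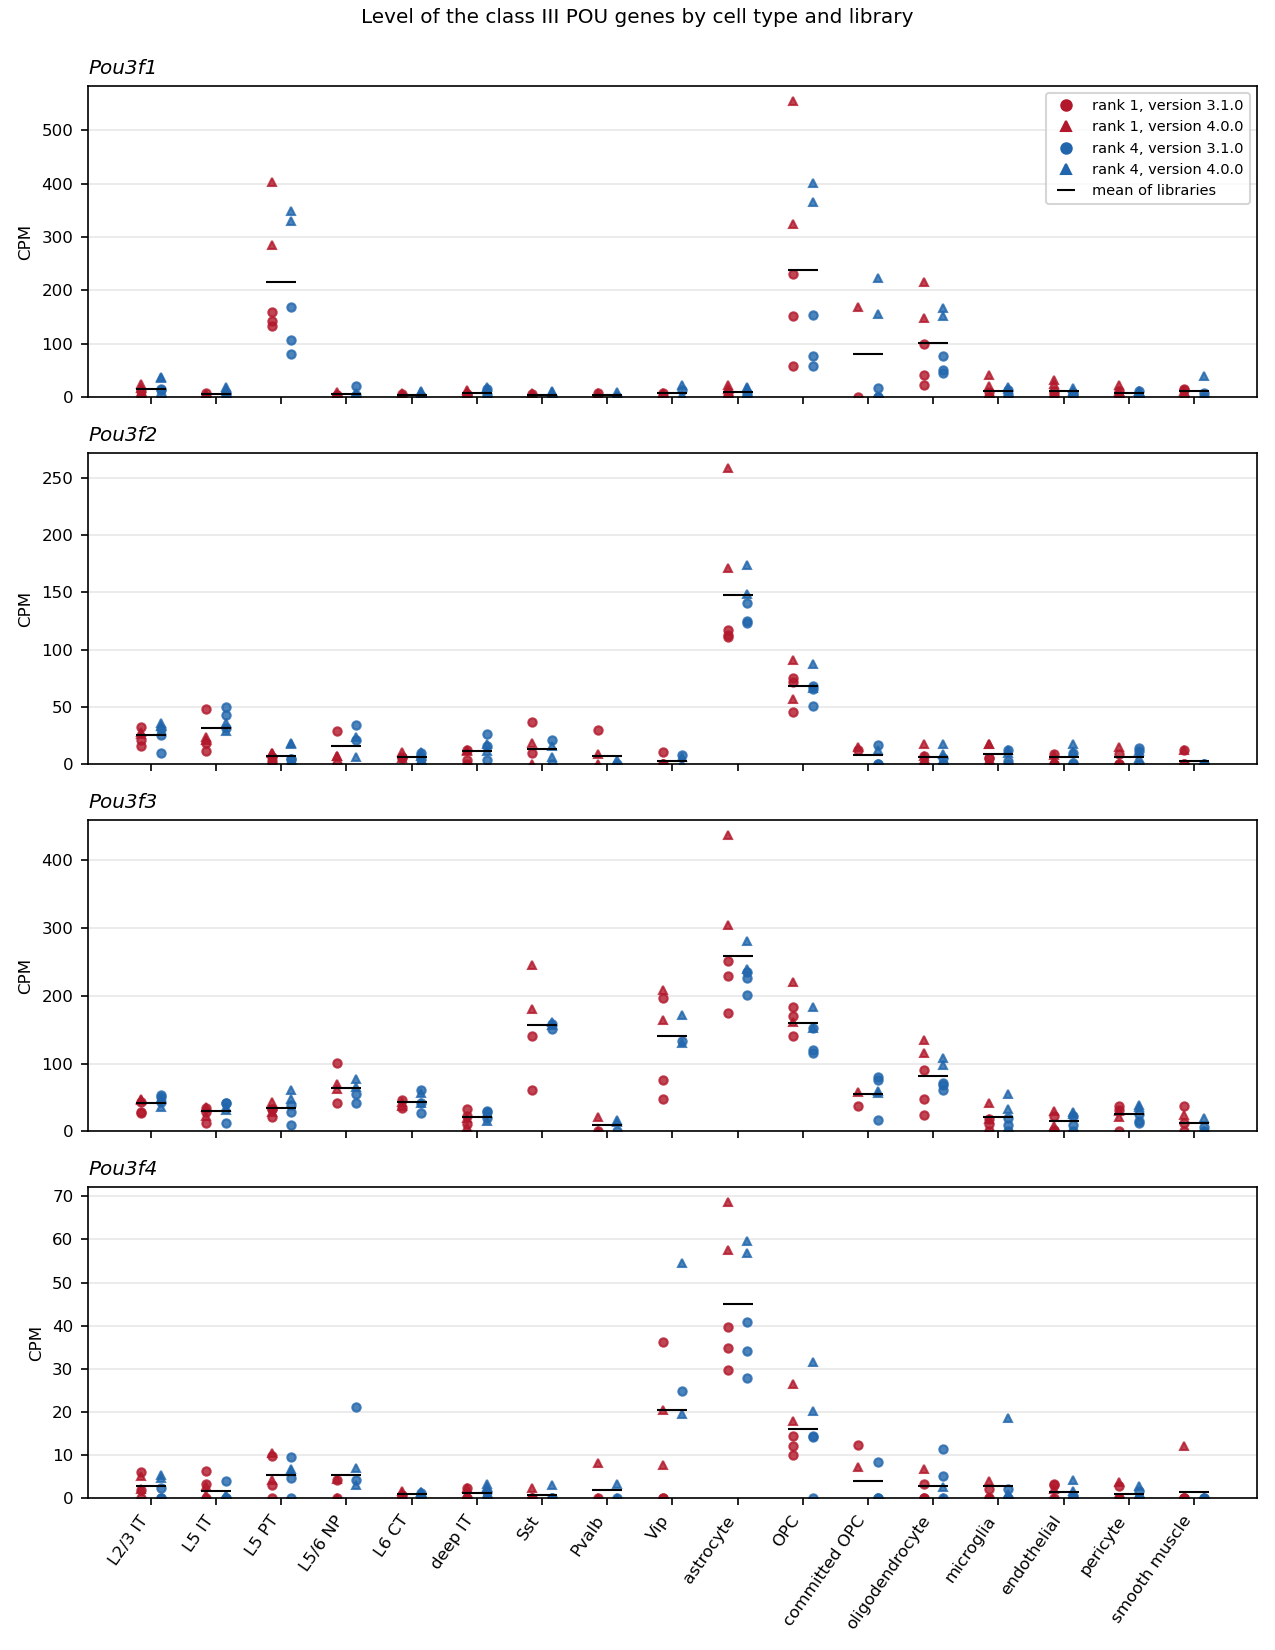
Level of each class III POU gene (vertical axis, CPM, a separate linear scale for each gene) in 17 cell types, with 1 point per library that held at least 20 cells of the type; colour gives the rank, shape the software version and the bar the mean. Pou3f1 stands out in L5 PT and OPC, Pou3f2 and Pou3f4 in astrocytes, and Pou3f3 in astrocytes, OPC, Sst and Vip.

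Pou3f1 in L5 PT neurons, which send axons out of the cortex to the brainstem and spinal cord, was 133, 159, 143, 404 and 285 CPM in rank 1 replicates 1 to 5. In rank 4 replicates 1 to 5 it was 80.5, 107, 168, 331 and 349 CPM. The 4 libraries of version 4.0.0 were all above the 6 of version 3.1.0, and the ranks overlapped. The mean over all libraries was 216 ± 115 CPM (SD, n = 10).

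In the other excitatory subclasses Pou3f1 had a mean of 16 ± 13.7 CPM in L2/3 IT (SD, n = 10), 8.46 ± 6.71 in deep IT (n = 10), 6.53 ± 6.5 in L5/6 NP (n = 8), 6.52 ± 6.48 in L5 IT (n = 10) and 4.31 ± 4.49 in L6 CT (n = 9). The L5 PT level was higher by 3.14 on the log2 scale than in L2/3 IT, by 3.69 than in L5 IT and by 3.53 than in deep IT, in 10 of 10 libraries each (exact permutation p = 0.00195). Against L6 CT it was higher by 3.90 in 9 of 9 libraries and against L5/6 NP by 3.82 in 8 of 8. These 5 pairs belong to 15 that were chosen after the levels were seen, and all 15 had an adjusted p of at most 0.0312. Among genes of at least 20 CPM in either type, 8.61% were higher in L5 PT than in L2/3 IT in every library, 7.72% than in L5 IT, 8.53% than in deep IT, 7.18% than in L6 CT and 10.3% than in L5/6 NP. Where shares of all genes higher in every library are given below, they too cover only genes of at least 20 CPM in either type. Within the libraries of version 3.1.0 the L5 PT level lay 3.1 above L2/3 IT and within those of version 4.0.0 it lay 3.20 above.

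Of 8791 genes compared over the 6 excitatory subclasses, none stood further above the median of the other subclasses in L5 PT than Pou3f1, by 3.77 on the log2 scale. The gene had no part in clustering or naming these cells. The L5 PT markers in use, Fam84b, Bcl6, Npr3, Parm1 and Slco2a1, were 4.00 to 8.11 times their level in all cells. Shares of cells with a UMI were compared after thinning cells to 1000 UMIs, and cells with fewer were left out (37 of 1084 in L5 PT, 1250 of 4332 in L2/3 IT, 2105 of 10550 in astrocytes, 638 of 3246 in OPCs and 1095 of 3635 in microglia). Of the thinned L5 PT cells 18.6% held a Pou3f1 UMI (95% exact interval 16.3% to 21.1%, 1047 cells), against 53.0% before thinning at a median of 3475 UMIs per cell.

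Pou3f1 was also high in OPCs, the dividing cells that give rise to oligodendrocytes. It was 230.0, 57.9, 151, 555 and 325 CPM in rank 1 replicates 1 to 5 and 154, 58.3, 77.2, 402 and 366 CPM in rank 4. Version 4.0.0 again lay above version 3.1.0 without overlap, while the ranks overlapped. The mean was 238 ± 169 CPM (SD, n = 10), and the step from OPC to L5 PT was not resolved (log2 difference -0.05 ± 0.74 SD, OPC higher in 7 of 10 libraries, exact permutation p = 0.852).

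In oligodendrocytes, the myelinating cells of the brain, Pou3f1 was 40.6, 22.5, 99.1, 215 and 149 CPM in rank 1 and 76.1, 46.0, 50.7, 167 and 151 CPM in rank 4. No library of version 3.1.0 reached the level of a version 4.0.0 library, and the ranks overlapped. L5 PT exceeded oligodendrocytes by 1.09 ± 0.63 (log2, SD, 10 of 10 libraries, exact permutation p = 0.00195, adjusted p = 0.0308), where 30.4% of all genes were higher in every library. OPCs exceeded oligodendrocytes by 1.05 in 10 of 10 libraries (26.7% of all genes).

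Committed precursors, the stage between OPC and oligodendrocyte, had a mean Pou3f1 level of 80.7 ± 97.8 CPM over 7 libraries. The gene was at 0 in 3 of these and between 156 and 224 CPM in the 3 of version 4.0.0. Oligodendrocytes were higher in 4 of 7 libraries, a step that did not pass (log2 difference 1.21 ± 1.36 SD, exact permutation p = 0.125). No test was made against OPCs. After thinning, 5.93% of committed precursors (3.36% to 9.59%, 253 cells) and 20.9% of OPCs (19.3% to 22.5%) held a Pou3f1 UMI. Astrocytes, the other large glial class, had 9.51 ± 8.53 CPM (n = 10), and OPCs exceeded them by 3.45 in 10 of 10 libraries (24.4% of all genes).

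Microglia, immune cells of another lineage, served as the measure of free RNA. Pou3f1 was 9.81, 0, 0, 42.04 and 20.02 CPM there in rank 1 and 13.3, 0, 3.01, 18.5 and 14.5 CPM in rank 4, highest in the version 4.0.0 libraries. After thinning, 0.945% of microglia held a Pou3f1 UMI (0.606% to 1.40%, median 1278 UMIs before thinning), against 20.9% of OPCs (19.3% to 22.5%, median 1630) and 11.4% of oligodendrocytes (9.94% to 13%, median 1289). Shares in astrocytes (1.16%) and in L6 CT (0.889%), L5 IT (0.968%) and L5/6 NP (0.672%) neurons were near the microglial share. L2/3 IT lay above it over pooled cells, at 2.34% (1.83% to 2.93%). The spreads over libraries overlapped, at 1.46 ± 1.53% in L2/3 IT and 0.992 ± 1.17% in microglia (SD, n = 10 each). Pooled erythroid cells also lay above microglia, at 2.34% for Pou3f1 (1.13% to 4.26%) and 4.22% for Pou3f3 (2.52% to 6.58%, against 1.93% in microglia). Erythroid cells numbered at least 20 in 5 libraries and were not among the types compared with microglia. Of the 447 erythroid cells, 128 formed a cluster with the endothelial markers Cldn5, Flt1 and Ly6c1 among its 10 leading genes. The erythroid values are thus not those of erythroid cells alone.

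**Figure D2:**
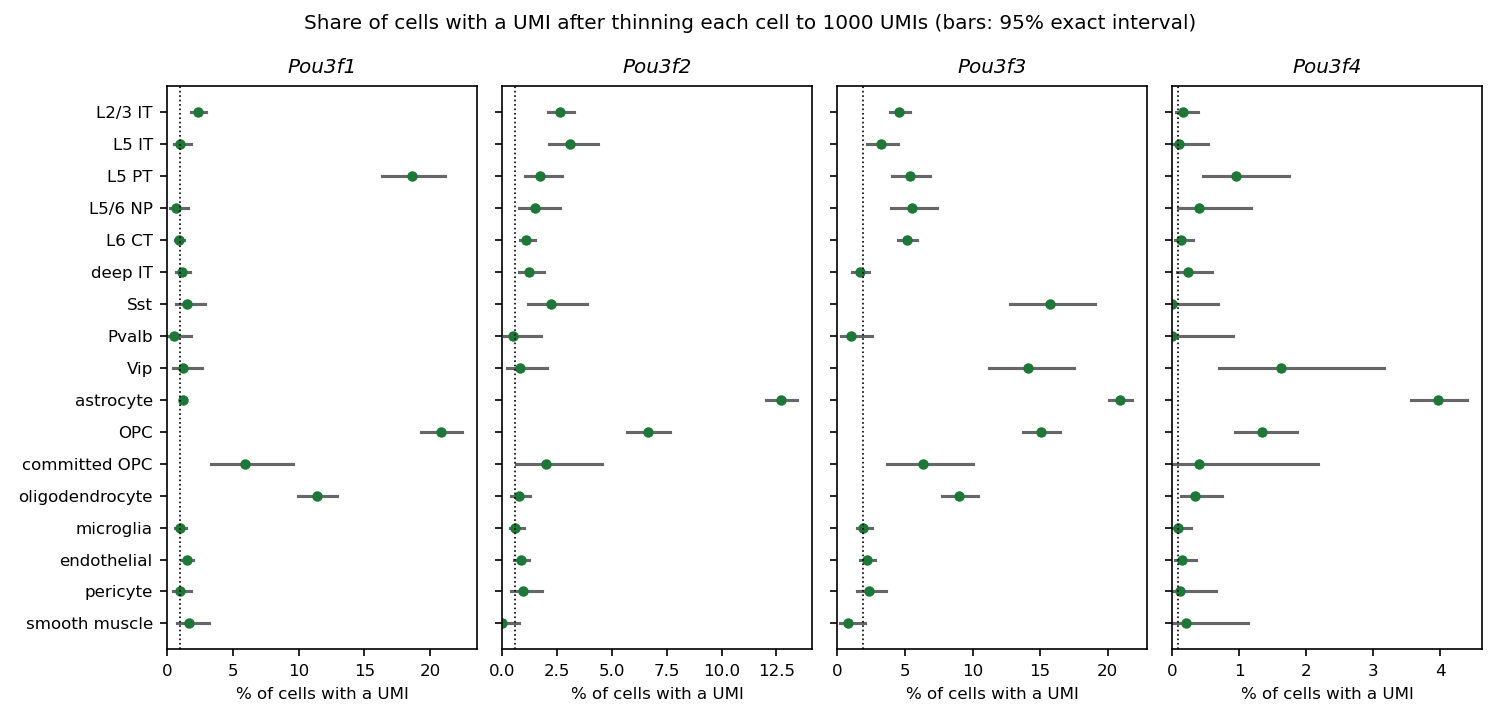
Share of cells with at least 1 UMI of each gene after cells were thinned to 1000 UMIs, without cells of fewer UMIs (horizontal axis, percent, a separate scale per gene) in 17 cell types, with 95% exact binomial intervals that cover counting error only; the dotted line is the microglial share. Pou3f1 reaches 20.9% of OPC and 18.6% of L5 PT, and Pou3f3 reaches 20.9% of astrocytes and 15.7% of Sst cells.

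The other 16 types were also set against microglia in 64 exact permutation tests, an addition made after the levels were seen, and 16 were higher at an adjusted p under 0.05. For Pou3f1 these were L5 PT (log2 difference 3.39), OPC (3.34) and oligodendrocytes (2.30), each in 10 of 10 libraries with an adjusted p of 0.0114. Among genes of at least 20 CPM in either type, 31.4%, 28.1% and 11.6% were higher than in microglia in every library in these types. L2/3 IT, at 0.25 above microglia in 7 of 10 libraries, did not pass as the next step of the order (exact permutation p = 0.254).

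Pou3f2, a factor of neural progenitors and upper-layer neurons, was highest in astrocytes. Astrocytes held 117, 112, 111, 259 and 171 CPM in rank 1 replicates 1 to 5 and 123, 141, 125, 174 and 148 CPM in rank 4. Rank 1 replicate 4 was the highest library, and the ranks overlapped. The 4 libraries of version 4.0.0 lay above the 6 of version 3.1.0. OPCs had 71.8, 45.7, 75.6, 91.1 and 57.1 CPM in rank 1 and 68.4, 65.5, 50.8, 66.4 and 87.8 CPM in rank 4, below the astrocytes of the same library throughout.

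The step from astrocytes (148 ± 45 CPM) to OPCs (68.0 ± 14.6 CPM, both SD, n = 10) was 1.00 ± 0.33 on the log2 scale in 10 of 10 libraries (exact permutation p = 0.00195, adjusted p = 0.0308), with 12.9% of all genes higher in astrocytes in every library. The next step, from OPCs to L5 IT neurons, was 0.96 ± 0.57 in 10 of 10 libraries with the same p values (23.2% of all genes). Unlike Pou3f1, Pou3f2 was low in oligodendrocytes, with a mean of 6.34 ± 6.98 CPM (n = 10) and 4 libraries at 0. OPCs exceeded oligodendrocytes by 2.34 in 10 of 10 libraries, and oligodendrocytes had a thinned share of 0.736% of cells against 0.591% in microglia.

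Among excitatory neurons Pou3f2 was highest in 2 intratelencephalic subclasses, whose axons stay within the telencephalon. L5 IT held 48.2, 18.8, 11.4, 23.5 and 21.1 CPM in rank 1 and 43.1, 31.4, 50.2, 36.3 and 29.1 CPM in rank 4. L2/3 IT held 32.3, 15.4, 21.3, 28.4 and 26.1 CPM in rank 1 and 31.1, 25.2, 10.0, 33.2 and 35.8 CPM in rank 4. The ranges of these subclasses overlapped, and the step between them was 0.17 ± 0.59 (6 of 10 libraries, exact permutation p = 0.441). L2/3 IT joined 2 clusters. That of 2642 cells was shallow (median 1041 UMIs) and led by Otof, with Apoe, Mobp, Mt2 and Flt1 also among its 10 leading genes. Pou3f2 was 34.7 CPM there over pooled cells, against 26.5 CPM in the cluster of 1690 cells (median 2602 UMIs).

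Pou3f2 was lower in the subclasses that project out of the telencephalon, with means of 7.49 ± 6.57 CPM in L5 PT (n = 10) and 6.68 ± 3.40 CPM in L6 CT (n = 9). L2/3 IT exceeded L5 PT by 1.09 (7.60% of all genes higher in every library) and L6 CT by 1.15 (9.11%), and L5 IT exceeded L6 CT by 1.32 (7.82%). Each of these 3 differences, chosen after the levels were seen, held in every library. Deep IT neurons, the third intratelencephalic group, had a mean of 11.5 ± 7.85 CPM (n = 10), and 468 of their 1731 cells formed a cluster led by activity-related genes such as Egr4, Fosb and Fos. A further 2316 excitatory cells led by Rxfp1, Scube1 and Oprk1 stayed unnamed, at 23.7 CPM of Pou3f2 over the pooled cells.

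Against microglia (8.47 ± 6.69 CPM) Pou3f2 was higher by 3.14 in astrocytes, 2.15 in OPCs, 1.18 in L5 IT and 1.01 in L2/3 IT, each in 10 of 10 libraries (exact permutation, adjusted p = 0.0114), where 23.7%, 28.1%, 30.9% and 33.4% of all genes were higher in every library. Thinned shares of cells with a UMI were 12.7% in astrocytes (12% to 13.5%, 19.8% before thinning), 6.63% in OPCs, 3.1% in L5 IT and 2.63% in L2/3 IT. The intervals of L5 IT (2.13% to 4.35%) and L2/3 IT (2.09% to 3.26%) overlap that of erythroid cells, at 0.937% (0.256% to 2.38%). In the version 4.0.0 libraries alone the L5 IT difference was 0.61 and in those of version 3.1.0 it was 1.57.

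Pou3f3, the close relative of Pou3f2 in cortical development, was also highest in astrocytes. They held 175, 251, 229.7, 438 and 304 CPM in rank 1 and 201, 236, 226, 282 and 239.5 CPM in rank 4. The ranks overlapped, with rank 1 replicate 4 again highest. OPCs held 170.0, 183, 141, 220.3 and 162 CPM in rank 1 and 153, 120.2, 116, 183 and 153 CPM in rank 4. The step down from astrocytes was 0.64 ± 0.29 on the log2 scale (10 of 10 libraries, exact permutation p = 0.00195, adjusted p = 0.0308), where 12.9% of all genes were higher in astrocytes in every library.

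Sst interneurons, inhibitory cells that target the dendrites of pyramidal neurons, held 141, 61.3, 246 and 181 CPM of Pou3f3 in rank 1 replicates 1, 2, 4 and 5. In rank 4 replicates 1, 3, 4 and 5 they held 152, 158, 158 and 161 CPM, and the other 2 libraries had under 20 such cells. Vip interneurons, which mostly inhibit other interneurons, held 76.3, 47.0, 197, 209 and 164 CPM in rank 1 and 133, 171 and 131 CPM in rank 4 replicates 1, 4 and 5. The rank 1 values spread on both sides of the rank 4 values in both subclasses.

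The means were 157 ± 50.7 CPM in Sst and 141 ± 56.7 CPM in Vip (SD, n = 8 each), and the step between them was 0.26 in 6 of 7 libraries (exact permutation p = 0.03125, not past the threshold after adjustment). OPC and Sst did not differ beyond the spread (0.14 ± 0.57, 4 of 8 libraries, exact permutation p = 0.695). Pvalb interneurons, fast-spiking cells that target cell bodies, stood far lower, at 0, 0 and 20.6 CPM in rank 1 replicates 1, 4 and 5 and 0, 13.4 and 17.4 CPM in rank 4 replicates 3, 4 and 5. Sst exceeded Pvalb by 3.47 in 6 of 6 libraries (exact permutation p = 0.03125, the smallest that 6 libraries allow, chosen after the levels were seen), and 9.74% of all genes were higher in Sst in every library.

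The difference within interneurons was also seen in single cells. After thinning, 15.7% of Sst cells (12.7% to 19.1%) and 14.1% of Vip cells (11.2% to 17.5%) held a Pou3f3 UMI, against 0.995% of Pvalb cells (0.272% to 2.53%) and 1.93% of microglia. Before thinning the share of Sst cells was 42.6% at a median of 3493 UMIs, with 4.42% of Pvalb cells at a median of 3366 UMIs. The 279 Lamp5 cells, too few in most libraries to enter the order, held 29.95 CPM over their pooled UMIs. Among Sst, Vip and Pvalb alone, Pou3f3 in Sst stood 1.66 (log2) above the midpoint of the other 2 subclasses, in place 50 of 8558 genes, and in Vip 1.44 above it, in place 144. The low Pvalb level, at -3.10 from its own midpoint and in place 8548, enters both of these midpoints. The places therefore reflect Pvalb more than a difference between Sst and Vip, whose step was 0.26.

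Lower levels of Pou3f3 were spread over most other neural types. The mean was 81.8 ± 33.5 CPM in oligodendrocytes (n = 10), 64.5 ± 19.4 in L5/6 NP (n = 8), 54.8 ± 21.9 in committed precursors (n = 7), 43.2 ± 10.5 in L6 CT (n = 9), 42.5 ± 8.99 in L2/3 IT (n = 10), 34.5 ± 14.3 in L5 PT (n = 10) and 29.7 ± 10.9 in L5 IT (n = 10). No step of the order below OPC passed after adjustment, so neighbours in it are not resolved. OPCs exceeded oligodendrocytes by 0.97 in 10 of 10 libraries.

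Against microglia (20.6 ± 18.0 CPM) Pou3f3 passed in 7 types by the exact permutation test, with differences of 3.33 in astrocytes, 2.70 in OPC, 1.72 in oligodendrocytes, 2.28 in Sst, 2.20 in Vip, 1.14 in L5/6 NP and 1.00 in L2/3 IT. Pou3f3 was higher in every library in the first 6 of these types, where 23.7%, 28.1%, 11.6%, 26.6%, 20.2% and 25.2% of all genes were, in the same order. In L2/3 IT it was higher in 9 of 10 libraries, so the 33.4% of genes higher there in every library met a stricter condition than Pou3f3 did. The thinned shares were 4.57% (3.86% to 5.37%) in L2/3 IT and 5.51% (3.98% to 7.40%) in L5/6 NP. Both intervals overlap that of erythroid cells (2.52% to 6.58%). The L2/3 IT difference was 1.48 in the version 3.1.0 libraries and 0.27 in those of version 4.0.0. L6 CT (0.98) and L5 PT (0.71) did not pass (adjusted p = 0.05 or above by the same exact test).

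Pou3f4, the member on the X chromosome, was the least counted, with 831 UMIs in 10550 astrocytes. Astrocytes held 34.9, 29.6, 39.7, 57.4 and 68.6 CPM in rank 1 and 34.0, 40.9, 27.8, 56.9 and 59.7 CPM in rank 4. All 4 libraries of version 4.0.0 were above all 6 of version 3.1.0, and the ranks overlapped. The mean was 44.9 ± 14.4 CPM (SD, n = 10), 2.14 above microglia on the log2 scale in 10 of 10 libraries (exact permutation, adjusted p = 0.0114, 23.7% of all genes).

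OPCs came next among the types with 10 libraries, at 14.5, 12.2, 10.1, 26.4 and 17.9 CPM of Pou3f4 in rank 1 and 14.4, 0, 14.2, 31.6 and 20.3 CPM in rank 4. They were 1.03 above microglia in 9 of 10 libraries (exact permutation, adjusted p = 0.0208). Vip interneurons held 36.3, 0, 0, 7.75 and 20.6 CPM in rank 1 and 24.9, 54.5 and 19.6 CPM in rank 4 replicates 1, 4 and 5, a range that covers the OPC values. Their difference from microglia did not pass (1.00, 6 of 8 libraries, exact permutation, adjusted p = 0.087), while they exceeded Sst interneurons by 1.43 in 6 of 7 libraries (exact permutation p = 0.03125, a chosen pair). The 6.13% of all genes that were higher in Vip than in Sst in every library met a stricter condition than Pou3f4 did. The step from astrocytes to Vip was 1.15 in 7 of 8 libraries (p = 0.0156 by the exact permutation test) and did not pass after adjustment.

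A thinned share of 3.97% of astrocytes held a Pou3f4 UMI, with 1.62% of Vip cells, 1.34% of OPCs and 0.0787% of microglia. The OPC interval (0.937% to 1.86%) overlaps that of erythroid cells, at 0.468% (0.0568% to 1.68%). In Sst and Pvalb interneurons 0 of 541 and 0 of 402 thinned cells held one, which allows shares of cells with a UMI of up to 0.680% and 0.913% (95% exact interval). Every other type had a mean under 6 CPM.

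Astrocytes fell into 3 clusters, which differed in depth as well as in level. The cluster of 2834 cells had a median of 2133 UMIs per cell and 185 CPM of Pou3f2, 300.05 of Pou3f3 and 57.5 of Pou3f4 over pooled cells. The cluster of 5470 cells had a median of 1321 UMIs and 141, 245 and 44.7 CPM. The cluster of 2246 cells, with a median of 1110 UMIs, had 45, 85.4 and 15.3 CPM. It was the least clearly astrocytic, with a marker score (mean log2 ratio to the median cluster) of 2.47 and microglia next at 1.32. The deeper clusters scored 4.83 and 4.59. Only 3 astrocyte markers were in at least 10% of its cells, against 5 in each deeper cluster. Its cells are part of the astrocyte values above. These 3 genes took the same order over the clusters, with the deepest cells highest. Pou3f1, low in astrocytes, ran the other way, at 7.22, 9.80 and 22.7 CPM from the deepest to the shallowest cluster. The part of depth or of other cells' RNA in these orders was not tested.

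Detection of pairs of these genes in 1 cell was counted beside the product of their shares. Of 8445 thinned astrocytes, 264 held both Pou3f2 and Pou3f3, where the product of the shares gives 225. Of 2608 thinned OPCs, 92 held both Pou3f1 and Pou3f3, where the product gives 82.0. In oligodendrocytes the count was 10 against 18.1 for the same pair, and in L5 PT neurons 17 against 10.4. Other OPC pairs lay on both sides of the product. Pou3f1 with Pou3f2 had 44 against 36.1, Pou3f2 with Pou3f3 21 against 26.1 and Pou3f3 with Pou3f4 1 against 5.27. Cells of 1 type come from libraries and clusters of different level, so these counts are a description.

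Over the 17 types the 4 genes were not alike. The Pearson correlation of mean log2(CPM + 10) was 0.73 between Pou3f3 and Pou3f4, 0.67 between Pou3f2 and Pou3f4, 0.59 between Pou3f2 and Pou3f3, and 0.13 to 0.23 between Pou3f1 and the others. All points share their libraries, and depth and free RNA differ between types, so these values describe the pattern only. The 5 genes most like Pou3f1 among 11711 were Lrrn1 (0.81), Gpsm2 (0.79), Abhd17b (0.78), Tmem163 (0.77) and Bend7 (0.75). Pou3f2 was most like Nim1k (0.90), 2810459M11Rik (0.89), Gabrg1 (0.88), Gm42067 (0.88) and Nkain4 (0.88).

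The pattern of Pou3f4 over types was shared most closely by Nr2e1 (0.96), Gm17750 (0.96), Pax6 (0.91), Cxcl14 (0.91) and Enho (0.89). Nr2e1 and Pax6 encode transcription factors of neural progenitors. Within the 6 excitatory subclasses Pou3f1 was most like Raver2 (1.00), Serpine2, Doc2b, Ptp4a2 and Nt5dc3 (0.99 each), a correlation over 6 points of which L5 PT stood apart. Pou3f2 was there most like Eif4ebp1, Mrps26, Sf3a2, Wrap73 (0.99 each) and Txndc5 (0.98), and Pou3f3 most like Scn3a, Dis3l2, Ctnnal1, Prpf39 and Cep162 (0.99 each).

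The gene most like Pou3f3 over the 17 types was its neighbour Pantr1, a long noncoding RNA at chr1:42590782-42694842 on the minus strand, whose start lies 926 bases from that of Pou3f3. Their correlation was 0.85, followed by Fam213a (0.83), Epb41l5 (0.83), Fdxr (0.82) and Clu (0.80). Both were highest in astrocytes and lowest in Pvalb interneurons.

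**Figure D3:**
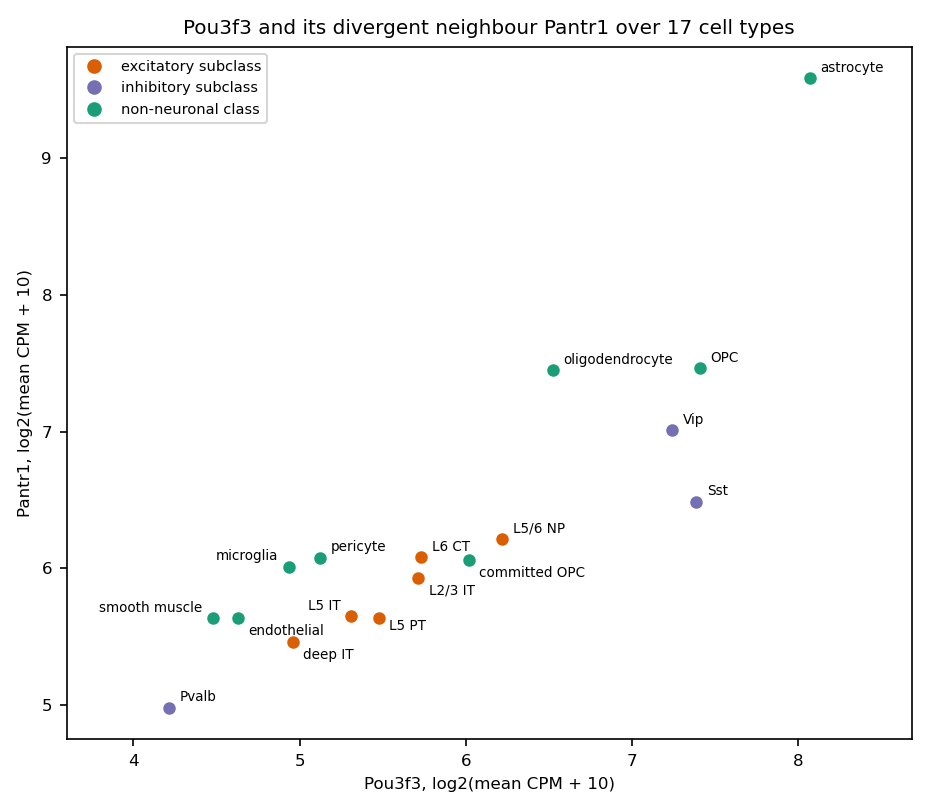
Pou3f3 (horizontal axis) against Pantr1 (vertical axis), both as log2 of mean CPM + 10 over libraries, with 1 point per cell type and colour for the kind of type. The points rise from Pvalb at the lower left to astrocytes at the upper right, with a correlation of 0.85 over 17 types.

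Between libraries Pantr1 went with the software version. In astrocytes it was 577, 1222, 1251, 197 and 295 CPM in rank 1 and 640, 1270, 1426, 272 and 416 CPM in rank 4. All version 4.0.0 libraries were below all of version 3.1.0. In the edgeR quasi-likelihood fit Pantr1 was lower in version 4.0.0 by 2.06 on the log2 scale (a log2 fold change of -2.06, Benjamini-Hochberg adjusted p = 0.00076), while Pou3f3 in the same cells had 0.31 (SE 0.19, adjusted p = 0.216).

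Software version went with the level of Pou3f1 in every type in which it could be tested. The edgeR test for version 4.0.0 over 3.1.0, with rank in the model, called Pou3f1 higher in 6 of 6 types, Pou3f4 in 1 of 2, Pou3f3 in 1 of 14 and Pou3f2 in 0 of 5, and none lower. The background was high: of all genes 18.7% were called higher in classes and 14.7% in subclasses. The log2 fold changes of Pou3f1 were 1.49 ± 0.23 (SE) in excitatory neurons, 1.70 ± 0.32 in OPCs, 1.54 ± 0.31 in oligodendrocytes, 1.61 ± 0.51 in astrocytes, 1.30 ± 0.19 in L5 PT and 1.86 ± 0.39 in L2/3 IT, with adjusted p from 8.56e-05 to 0.0253 (edgeR, Benjamini-Hochberg).

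The 2 other calls were Pou3f3 in oligodendrocytes (0.91 ± 0.29 SE, edgeR adjusted p = 0.0236) and Pou3f4 in astrocytes (0.63 ± 0.16, adjusted p = 0.00901). In microglia Pou3f1 went from 4.35 ± 5.79 CPM in version 3.1.0 to 23.8 ± 12.4 CPM in version 4.0.0 (SD, n = 6 and 4). The header version marks replicates 1 to 3 against 4 and 5, so gene list, software and any other difference between these replicates cannot be told apart. Gm2164, annotated on the other strand, overlaps the first 363 bases of Pou3f1, and whether counting used strand is not given in the sources used here. AC122898.1 overlaps Pou3f3 on the same strand, and the effect of either overlap on the counts was not tested.

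**Figure D4:**
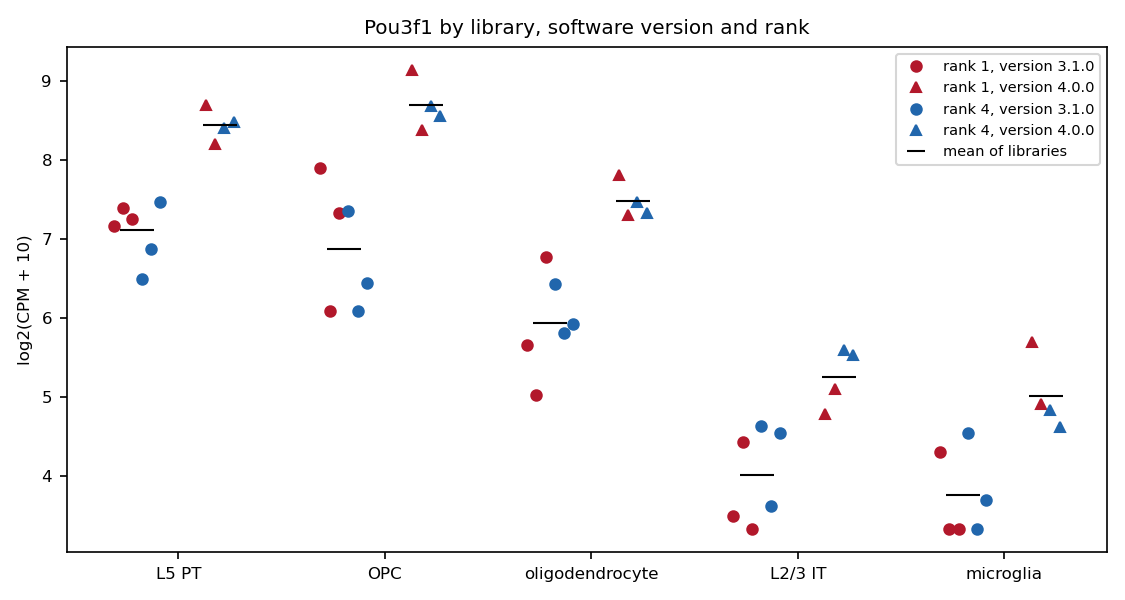
Pou3f1 level (log2 of CPM + 10) by library in 5 cell types, split by the software version in the file header (circles 3.1.0, triangles 4.0.0), with colour for rank and a bar for the mean of each version. In all 5 types the 4 triangles lie above the 6 circles, and the colours mix within each version.

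Between the ranks no class III POU gene was called in any cell type. Counts were tested with edgeR, with the software version as covariate, and 27 combinations of gene and type passed the filter on low counts, 6 for Pou3f1, 5 for Pou3f2, 14 for Pou3f3 and 2 for Pou3f4. In the 15 tests in classes 0 were called, with 9 higher and 6 lower in rank 1 by sign and a median log2 fold change of 0.03. In the 12 tests in subclasses 0 were called, with 3 higher and 9 lower and a median of -0.21. Over all genes 0% of 62084 tests in classes and 0% of 59285 in subclasses were called, and 2.18% and 4.19% had an unadjusted p under 0.05. The median over all genes lay between -0.02 and 0.02 in each type.

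With the replicate number as a block in place of the version, edgeR called 126 of 62084 tests in classes (0.203%) and 144 of 59285 in subclasses (0.243%), and no class III POU gene among them. At an unadjusted p under 0.05 the block gave 9.76% in classes and 8.63% in subclasses. DESeq2 called 1 test in classes (0.00161%) and 0 in subclasses. Without a filter on low counts edgeR called 33 of 157256 in classes (0.0210%) and 94 of 151509 in subclasses (0.0620%). None of these calls was a class III POU gene.

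Pou3f1 in L5 PT neurons had a log2 fold change of 0.15 ± 0.19 (SE) for rank 1 over rank 4 (edgeR, Benjamini-Hochberg adjusted p = 1.00), on the library values given above, with rank 1 higher in 3 of 5 same-numbered pairs. Without libraries of under 50 cells the value was -0.01. In OPCs it was 0.39 ± 0.32 and in oligodendrocytes 0.07 ± 0.31, each with an edgeR adjusted p of 1.00. The ranks overlapped in all 3 types.

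The lowest unadjusted p of the 27 tests was that of Pou3f1 in L2/3 IT neurons. It was 1.24, 11.6, 0, 17.5 and 24.4 CPM in rank 1 and 14.7, 2.29, 13.4, 38.5 and 36.3 CPM in rank 4, overlapping between ranks. The mean of 16 CPM compares with 12.1 CPM in microglia. The log2 fold change was -0.93 ± 0.38 (SE, edgeR, Benjamini-Hochberg adjusted p = 1.00), and rank 1 was lower in 4 of 5 pairs. The rank difference in L2/3 IT less that in L5 PT was -0.75 (exact permutation p = 0.0476, adjusted p = 0.884), and of 60 such differences between excitatory subclasses 0 passed.

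Pou3f2 in excitatory neurons had the lowest p of the 15 tests in classes. It was 18.6, 10.6, 9.49, 15 and 15.2 CPM in rank 1 replicates 1 to 5 and 27.1, 13.9, 10.5, 18.8 and 22.7 CPM in rank 4. The ranks overlapped, though each rank 1 library was below the rank 4 library of the same number, in 5 of 5 pairs. Pou3f3 in the same neurons was also lower in rank 1 in 5 of 5 pairs (-0.26 ± 0.17). Pou3f1 went the other way in 5 of 5 (0.25 ± 0.23). The ranks overlapped for both genes, and neither was called. Single subclasses did not repeat this Pou3f1 count. Rank 1 had the larger value in only 1 of 5 pairs in each of L2/3 IT, L5 IT and deep IT. The counts were 3 of 5 in L5 PT, 2 of 4 in L6 CT and 2 of 3 in L5/6 NP. The part played by the share of L5 PT cells, the excitatory subclass with most Pou3f1, was not tested. The log2 fold change of Pou3f2 was -0.44 ± 0.25 (SE, edgeR, Benjamini-Hochberg adjusted p = 1.00). Libraries of version 3.1.0 alone gave -0.41, those of version 4.0.0 alone -0.44, and all without rank 4 replicate 1 gave -0.20. L5 IT gave -0.46 ± 0.27, and L2/3 IT gave -0.19 ± 0.25.

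The version-adjusted edgeR fold change of Pou3f3 was below 0 in all 6 excitatory subclasses and in excitatory neurons as a whole, with none called. The values ran from -0.53 ± 0.32 (SE) in deep IT through -0.40 ± 0.26 in L5 PT to -0.05 ± 0.28 in L5/6 NP. In L5/6 NP the unadjusted means ran the other way, at 68.9 ± 24.7 CPM in rank 1 and 60.03 ± 14.7 CPM in rank 4 (SD, n = 4 each). In glia and interneurons it was 0.17 ± 0.19 in astrocytes, 0.26 ± 0.18 in OPCs, 0.00 ± 0.28 in oligodendrocytes, 0.13 ± 0.26 in Sst and 0.02 ± 0.35 in Vip. OPC levels were higher in rank 1 in 5 of 5 same-numbered pairs, with overlapping ranks (edgeR, adjusted p = 1.00). Pou3f4 gave 0.05 ± 0.16 in astrocytes.

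**Figure D5:**
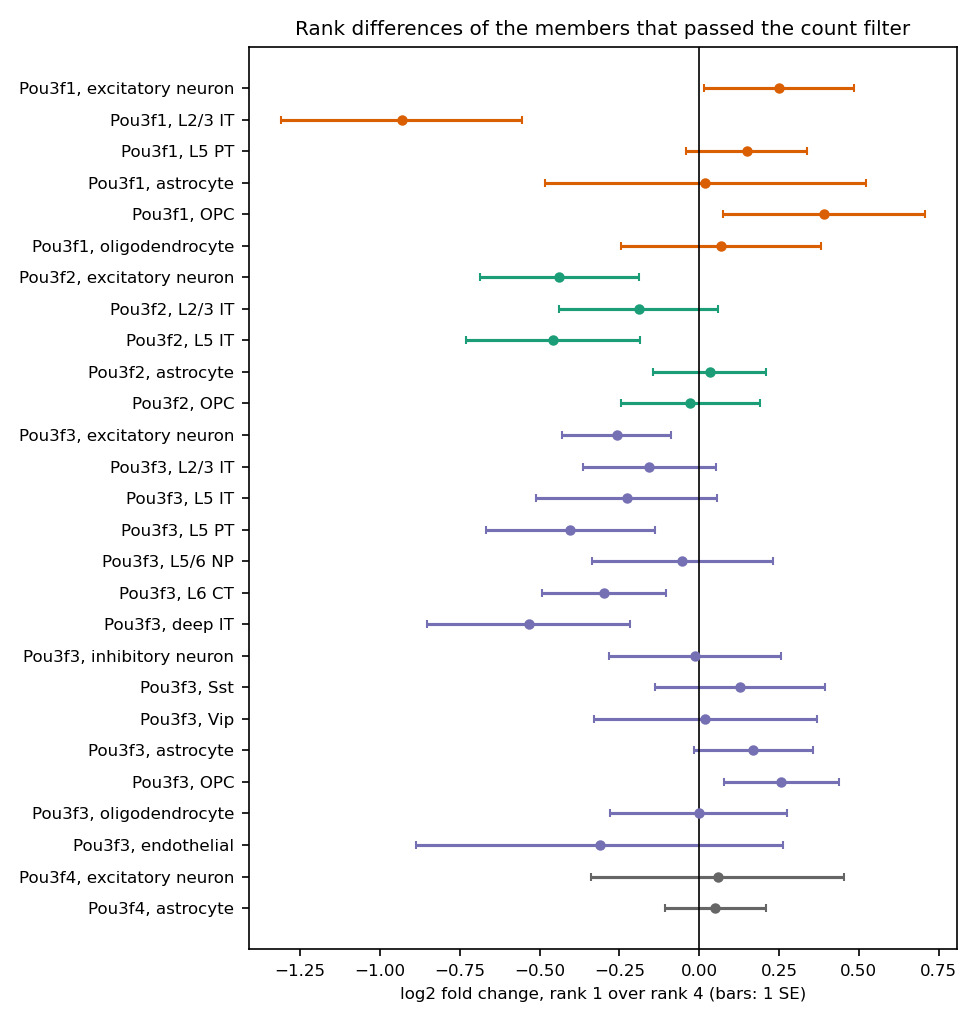
Log2 fold change of rank 1 over rank 4 (horizontal axis, bars 1 SE, edgeR) for class III POU genes in the types in which they passed the filter on low counts, with colour for the gene. Values run from -0.93 for Pou3f1 in L2/3 IT to 0.39 for Pou3f1 in OPC, and none passed after adjustment.

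Other genes of the same fields were read from lists by the same test. Of the other POU genes 5 of 11 passed the filter, in 32 tests with 0 called and a median log2 fold change of -0.08. The lowest p were those of Pou6f1 in deep IT (-0.67 ± 0.21 SE, edgeR adjusted p = 1.00) and Pou2f1 in astrocytes (0.38 ± 0.22). Transcription factors of projection neurons gave 195 tests over 18 genes with 0 called, 11 with an unadjusted p under 0.05 and a median of -0.02.

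Of that list the lowest p were those of Rorb in L5 IT (0.63 ± 0.17 SE), itself a marker by which L5 IT cells were named, and Bcl11b in excitatory neurons (0.51 ± 0.15), each with an edgeR adjusted p of 1.00. Glial lineage factors gave 91 tests over 14 genes with 0 called, 5 with an unadjusted p under 0.05 and a median of 0.03, led by Nfib in L5 IT (0.74 ± 0.19) and Id4 in L5/6 NP (-1.16 ± 0.42). Of the neighbours of the 4 genes only Pantr1 passed the filter, in 15 tests with 0 called and a median of -0.38. Its lowest p was in L6 CT (-0.50 ± 0.20, edgeR adjusted p = 1.00).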

How the data were processed

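The deposited matrices hold raw counts of UMIs per gene and cell barcode, per the file headers in the coordinate format of 10x Genomics software, and the submitters' processing notes name Cell Ranger 4.0.0 and mm10. The headers give version 3.1.0 for replicates 1 to 3 (31053 genes) and 4.0.0 for replicates 4 and 5 (32285 genes), and the 30406 shared genes were used. Settings of counting and cell calling were not given in the sources used here.

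Barcodes with at least 500 genes and at most 15% mitochondrial UMIs were kept. Scrublet in scanpy 1.11.5 called 3095 doublets on all barcodes, and where it marked under 0.5% (2 libraries) the median score threshold of the others, 0.247, was used. Cells were clustered by Leiden at resolution 1 on 30 principal components, 15 neighbours and 2000 variable genes without the 4 members, which gave 26 clusters. Excitatory and inhibitory neurons were clustered again. A cluster took a name from fixed markers with a score of at least 1 (mean log2 ratio to the median cluster, 10 CPM added), a lead of 0.5 and 3 markers in 10% of its cells.

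Counts were summed per library and type (at least 20 cells, 3 libraries per rank) and tested in edgeR 4.0.16 (TMM, filterByExpr, quasi-likelihood test, version as covariate, R 4.3.3), with Benjamini-Hochberg adjustment over all genes and classes, or subclasses. SEs were taken from the fold change and its F statistic. In data simulated on excitatory neurons (12402 genes) it recovered 76 of 100 genes changed 2-fold and 98 of 100 changed 4-fold, with 5 false calls. The simulation gave every gene the same spread between libraries and no difference between software versions. It therefore does not tell how large a rank difference the real libraries could resolve. Levels were compared in exact permutation tests (scipy 1.17.1). Smallest possible p values were 0.00195 for sign changes over 10 libraries and 0.00794 for 5 against 5. Same-numbered libraries deviated together (correlations of 0.71, 0.75, 0.69, 0.78 and 0.87 over genes), and replicate 3 correlated best with number 2. Within a software version the correlations were 0.77, 0.50, 0.26, 0.15 and 0.15. The last 2 values are equal by construction, since 2 libraries deviate from their own mean by opposite amounts. These correlations do not establish that the numbers pair the libraries, and the labels do not say so. The main test used no pairing, and counts of same-numbered pairs are a description.

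Named genes were the 4 members, the 5 most correlated with each, and of each list the 2 with the lowest p. The members and lists were chosen with earlier results of these data known. Nothing in the labels separates the mice of same-rank pools beyond the sample names, so p values measure the spread between these libraries. Intervals cover counting error only. Alternatives are given with the closing observations.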

Additional observations from a re-analysis of the deposited data

How the results depend on the processing

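None of the 35 called differences between types changed direction in the alternatives run: of their 626 values, 391 kept their side of the threshold and 235 lost it. Among all comparisons, called or not, 15 of the 63 steps and 29 of the 64 differences from microglia were below 0, and 5 to 19 and 17 to 35 were under the alternatives, some with fewer comparisons. Of the 4 steps between neighbouring types, 2 of 22 passed with at least 50 cells, and 0 passed with thinned shares, with any 1 library left out (0 to 0), in rank 1 or rank 4 libraries alone (smallest p 0.0625), or in version 3.1.0 (0.03125) or 4.0.0 (0.125) alone, where none can pass. Against the 16 calls over microglia there were 9 of 40 tests with at least 50 cells, 17 with a pseudocount of 1 CPM, 18 with the mean of cells' CPM, 12 to 15 with 1 library left out, 15 with thinned shares and 0 within a rank or a version. Of the 15 chosen pairs, 9 of 9 passed with stricter cells, 10 with thinned shares, 13 to 15 with 1 library left out and 0 within a rank or version.

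Counts of class III POU genes called between ranks, or in the test between subclasses, were 0 in every setting run. The lowest p of a class III POU gene under the block was that of Pou3f2 in excitatory neurons (edgeR adjusted p = 0.205). The replicate block, which pairs libraries by number, changed no other call than the all-gene counts of 126 and 144 given above. Of 300 alternative rank fold changes 29 turned sign, none of them called. Those not from leaving out a library were Pou3f1 in L5 PT at -0.010 (at least 50 cells) and -0.21 (stricter cells), Pou3f1 in oligodendrocytes at -0.077 and Pou3f3 in Sst at -0.14 (log2(CPM + 10)), Pou3f2 in L2/3 IT at 0.059 and Pou3f4 in astrocytes at -0.0091 (stricter cells). Within replicates 1 to 3 they were Pou3f2 in astrocytes at -0.21 and in OPC at 0.025, Pou3f3 in astrocytes at -0.039 and in Sst at -0.41. Pou3f3 in Vip was -0.032 without the filter, -0.044 without the covariate, -0.015 with the replicate block and -0.23 on log2(CPM + 10). With 1 library left out the ranges were -0.10 to 0.20 for Pou3f1 in oligodendrocytes, -0.13 to 0.090 and -0.13 to 0.10 for Pou3f2 in astrocytes and OPC, -0.066 to 0.28 and -0.16 to 0.16 for Pou3f3 in Sst and Vip, and -0.0056 to 0.11 for Pou3f4 in astrocytes. The cause was not tested.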

Other observations

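Within the Sst interneurons 1 small cluster stood apart in these genes. It held 25 cells from 6 libraries and was led by Npy, Nos1, Crhbp and Chodl, genes known from the long-range Sst neurons that make nitric oxide. Over its pooled UMIs Pou3f2 had 18 UMIs, or 181 CPM (107 to 286, 95% exact Poisson interval, counting error only), and Pou3f3 had 5 UMIs, or 50.2 CPM (16.3 to 117). In the other 3 Sst clusters, of 179, 184 and 161 cells, Pou3f2 was at 6.64, 1.44 and 8.24 CPM and Pou3f3 at 151, 166 and 199 CPM. Pou3f2 UMIs were in 13 of the 25 cells. The cluster was singled out after its values were seen, its cells were too few in any library for a test between libraries, and no test was made.

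Erythroid cells had pooled levels of 16.5 CPM of Pou3f1 and 21.3 CPM of Pou3f3. Perivascular macrophages had 0 Pou3f1 and 0 Pou3f4 UMIs over 113 cells, and fibroblasts 0 Pou3f4 UMIs over 113 cells.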
